A study of Homo sapiens with 16 samples.

Results

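The Toll-like receptor genes were followed through the promoters of 9 of the 10 human family members, TLR1 to TLR8 and TLR10, chosen by gene symbol out of 21857 promoters in the deposited tables. TLR9 was not analysed here. Cells were GM12878, a human B-lymphoblastoid line immortalized with Epstein-Barr virus, either untreated or harvested after 20, 40 or 60 min of heat-killed Salmonella typhimurium (HKST), and each condition was digested with 20 U (light) or 200 U (heavy) of micrococcal nuclease (MNase) in 2 replicates, 16 samples in all. All groups share this 1 line. The 8 deposited tables each pool both replicates, so every value below is 1 measurement per time point and digest with no spread between replicates, and its error is the counting error of its fragments only. All 9 promoters were held by the untreated light table and by both tables of 40 min and 60 min, 8 of them (not TLR6) by the untreated heavy table, and 1 (TLR5) by the 20 min tables. The depth of the tables, recovered from their values and rounded, was 9720000 light and 5117000 heavy fragments without HKST, 10459000 light and 4121000 heavy at 20 min, 9426000 light and 3272000 heavy at 40 min, and 10080000 light and 7038000 heavy at 60 min. The data hold no RNA, so the label of the cells and the expression of each receptor were not checked.

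Toll-like receptors are membrane proteins of innate immunity that recognize microbial molecules and signal through adaptors such as MYD88 toward NF-kB and interferon regulatory factors. TLR1, TLR2, TLR6 and TLR10 sit at the cell surface, where TLR2 pairs with TLR1 or TLR6 to bind bacterial lipoproteins. TLR4 recognizes lipopolysaccharide and TLR5 flagellin, both carried by Salmonella, while TLR3, TLR7 and TLR8 lie in endosomes and recognize double-stranded or single-stranded RNA. Human B cells are known for TLR1, TLR6, TLR7, TLR9 and TLR10 rather than for TLR3, TLR4, TLR5 or TLR8. MNase cuts the DNA between nucleosomes. Fragments released by light digestion but lost under heavy digestion mark MNase-sensitive nucleosomes, and fragments that outlast heavy digestion mark resistant ones.

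The receptor promoters fell into AT-rich and CpG-rich kinds, and the sequences of the 200 bp before the TSS are shown for 4 of them because they span the range of MNase sensitivity seen in the family. TLR6 and TLR7 were among the most MNase-sensitive, TLR8 had a nucleosome on its TSS, and TLR5 was among the most resistant. Sequences are read 5′ to 3′ on the strand of the gene from GRCh37, the same assembly as hg19 used for the tables, and CG dinucleotides are in capitals. TLR6 lies at chr4:38858439-38858638 on the minus strand, TLR7 at chrX:12885002-12885201 and TLR8 at chrX:12924539-12924738, both on the plus strand, and TLR5 at chr1:223316625-223316824 on the minus strand.
TLR6: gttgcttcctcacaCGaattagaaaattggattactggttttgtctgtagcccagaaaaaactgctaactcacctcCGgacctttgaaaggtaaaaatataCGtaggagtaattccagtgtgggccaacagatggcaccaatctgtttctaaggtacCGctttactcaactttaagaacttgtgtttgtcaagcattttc
TLR7: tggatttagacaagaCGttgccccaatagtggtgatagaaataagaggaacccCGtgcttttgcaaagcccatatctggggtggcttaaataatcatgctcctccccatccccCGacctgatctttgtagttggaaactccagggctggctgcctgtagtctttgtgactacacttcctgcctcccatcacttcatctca
TLR8: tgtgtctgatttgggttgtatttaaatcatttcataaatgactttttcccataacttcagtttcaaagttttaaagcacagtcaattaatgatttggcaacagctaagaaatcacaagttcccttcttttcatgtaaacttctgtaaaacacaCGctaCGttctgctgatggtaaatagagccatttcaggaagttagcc
TLR5: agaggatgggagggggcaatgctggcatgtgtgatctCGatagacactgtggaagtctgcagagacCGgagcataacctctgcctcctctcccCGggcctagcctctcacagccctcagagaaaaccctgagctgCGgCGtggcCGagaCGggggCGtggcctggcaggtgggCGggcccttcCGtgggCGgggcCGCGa
Over these 200 bp the TLR5 promoter held 13 CG dinucleotides, against 4 in TLR6, 3 in TLR7 and 2 in TLR8.

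Over the whole 2 kb, 7 of the 9 promoters had a GC content of 34.6% to 41.7%, no higher than the 11.4th percentile of all promoters, whose median was 55%. TLR2 with 59% and TLR5 with 58.4% lay above it. Between 250 bp before and 50 bp after the TSS, the ratio of observed to expected CpG was 0.82 for TLR2 and 0.70 for TLR5 and lay between 0.15 for TLR4 and 0.56 for TLR8 in the others. In this window on both strands, the ETS core GGAA was found in 9 of 9 receptor promoters against 94.3% of all promoters. The GC box GGGCGG was found in 4 (TLR2, TLR3, TLR5 and TLR10) against 52.8%. TATAAA was found in 1 (TLR7) against 10.7%. The interferon response core GAAANNGAA was found in 3 (TLR3, TLR4 and TLR8) against 7.38%, and a match can hold a GGAA where the base before its last GAA is G. No match was found to the NF-kB consensus (12% of all promoters), to TGANTCA (6.23%) or to the octamer ATTTGCAT (1.65%).

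The TSSs of TLR10 and TLR1 lie 21.8 kb apart and those of TLR1 and TLR6 52 kb apart on chromosome 4, all on the minus strand, and those of TLR7 and TLR8 lie 39.5 kb apart on chromosome X. The 2 kb regions are chr4:38805413-38807412 for TLR1, chr4:154604441-154606440 for TLR2, chr4:186989309-186991308 for TLR3, chr9:120465453-120467452 for TLR4, chr1:223315625-223317624 for TLR5, chr4:38857439-38859438 for TLR6, chrX:12884202-12886201 for TLR7, chrX:12923739-12925738 for TLR8 and chr4:38783612-38785611 for TLR10. A GENCODE transcript of the same gene starts within 34 bp of every TSS used, and others start further upstream for some receptors, so that all 200 bp before the TSS are annotated as exon for TLR2 and TLR3 and most of them for TLR1. The regions hold 5′ exons with untranslated sequence of their own receptor, and those of TLR4, TLR7 and TLR8 also reach into coding exons. The region of TLR6 overlaps exons of longer TLR1 transcripts, that of TLR8 overlaps its antisense RNA TLR8-AS1, that of TLR5 overlaps a lncRNA on the other strand, and that of TLR4 overlaps an unnamed protein-coding gene model on the same strand.

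The TLR7 and TLR1 promoters were among the most MNase-sensitive of all promoters at each time, as were TLR6 at 40 and 60 min, TLR3 without HKST and TLR10 at 60 min, while TLR2 and TLR5 were more resistant than the median promoter at each time. Sensitivity is the log2 ratio of light to heavy signal, each with 0.119 rpm added, where rpm is the deposited number of fragment centers scaled to the depth of its table. A 95% interval is that of the ratio of recovered fragments, to which nothing is added, so it can lie above the sensitivity of promoters with few fragments. Over the 2 kb, 2 of 8 receptor promoters exceeded 1 on the log2 scale without HKST, where 1.28% of all promoters did, 3 of 9 at 40 min, where 1.25% did, and 4 of 9 at 60 min, where 2.12% did. Median sensitivities of the receptors were 0.64 without HKST, 0.47 after 40 min and 0.64 after 60 min, against 0.07, 0.04 and 0.04 over all promoters.

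TLR7, the endosomal receptor of single-stranded RNA, averaged 1.05 rpm light without HKST, 0.768 rpm after 40 min and 1.21 rpm after 60 min, against 0.369, 0.255 and 0.424 rpm heavy. Its sensitivity was 1.26 without HKST (95% interval 1.11 to 1.94), 1.25 after 40 min (1.02 to 2.25) and 1.30 after 60 min (1.19 to 1.86), above 99.8%, 99.8% and 99.6% of promoters. Light signal exceeded heavy signal by more than the counting error at each of the 3 times.

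TLR1, which pairs with TLR2, averaged 0.828 rpm light without HKST, 0.775 rpm after 40 min and 0.991 rpm after 60 min, against 0.354, 0.306 and 0.317 rpm heavy. Its sensitivity was 1.00 (0.81 to 1.66) without HKST, 1.08 (0.79 to 1.90) after 40 min and 1.35 (1.27 to 2.02) after 60 min, above 98.7%, 99.2% and 99.7% of promoters. Light again stood above heavy at each time by more than the counting error.

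TLR6, the other partner of TLR2, had the fewest fragments of the family, with 7 heavy fragments over the 2 kb at 40 min and 19 at 60 min. Its light signal was 0.378 rpm without HKST, 0.336 rpm after 40 min and 0.423 rpm after 60 min, and its heavy signal 0.0622 rpm at 40 min and 0.0821 rpm at 60 min. The sensitivity was 1.33 at 40 min and 1.43 at 60 min, above 99.9% of promoters at both times. The log2 ratio of fragments, with nothing added, was 2.38 at 40 min (1.29 to 3.73) and 2.38 at 60 min (1.69 to 3.16).

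TLR10, a surface receptor of the same gene cluster, averaged 0.899 rpm light without HKST, 0.817 rpm after 40 min and 1.06 rpm after 60 min, against 0.508, 0.528 and 0.441 rpm heavy. Its sensitivity was 0.70 (0.40 to 1.27), 0.53 (0.13 to 1.18) and 1.08 (0.89 to 1.68) at these times, above 93%, 86.1% and 98.5% of promoters. From -540 to -120 bp, 34 positions of TLR10 had no value and the other 9 were at 0 in all 6 tables, so its 2 kb value rests on the remaining sequence.

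TLR3, the endosomal receptor of double-stranded RNA, had the most light signal of the family, with 1.95 rpm without HKST, 1.67 rpm after 40 min and 2.21 rpm after 60 min, against 1.07, 1.17 and 1.37 rpm heavy. Its sensitivity was 0.79 (0.61 to 1.11), 0.47 (0.22 to 0.81) and 0.64 (0.49 to 0.89), above 95.6%, 82.6% and 87.7% of promoters. TLR8, which recognizes single-stranded RNA, averaged 0.883, 0.790 and 0.918 rpm light against 0.552, 0.539 and 0.658 rpm heavy at the same times. The sensitivity of TLR8 was 0.58 (0.34 to 1.04), 0.47 (0.12 to 0.98) and 0.42 (0.20 to 0.77), so that both endosomal receptors stayed above 0 by more than the counting error at each time.

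TLR2 and TLR5 had more heavy than light signal. TLR2, the shared partner of the lipoprotein receptors, averaged 1.55 rpm light without HKST, 1.57 rpm after 40 min and 1.45 rpm after 60 min, against 1.99, 1.75 and 2.01 rpm heavy. Its sensitivity was -0.34 (-0.56 to -0.16), -0.15 (-0.41 to 0.09) and -0.44 (-0.65 to -0.28), so that its interval included 0 at 40 min. TLR5, the flagellin receptor, averaged 1.47 rpm light without HKST, 1.55 rpm after 20 min, 1.65 rpm after 40 min and 1.38 rpm after 60 min, against 1.95, 1.68, 2.08 and 1.91 rpm heavy. Its sensitivity was -0.38 (-0.61 to -0.19), -0.11 (-0.34 to 0.11), -0.32 (-0.57 to -0.11) and -0.44 (-0.66 to -0.28) at these 4 times, and its interval included 0 at 20 min.

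TLR4, the lipopolysaccharide receptor, lay between these kinds. It averaged 1.29 rpm light without HKST, 1.04 rpm after 40 min and 1.20 rpm after 60 min, against 1.08, 1.31 and 1.25 rpm heavy, with sensitivities of 0.23 (-0.01 to 0.53), -0.29 (-0.63 to -0.01) and -0.05 (-0.29 to 0.18). Ranked by sensitivity, neighbours in the order had overlapping intervals, except TLR4 over TLR2 in untreated cells, TLR8 over TLR2 at 40 min, and TLR10 over TLR3 and TLR8 over TLR4 at 60 min.

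**Figure D1:**
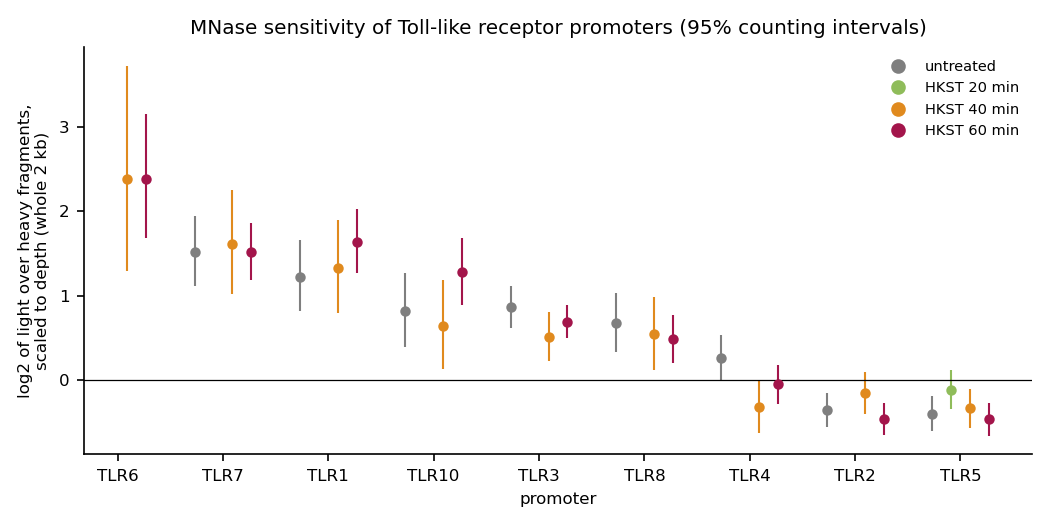
Log2 of light over heavy fragments, scaled to depth, over the 2 kb of each Toll-like receptor promoter (x axis), with points colored by time and bars giving 95% counting intervals. Every point of TLR6, TLR7, TLR1, TLR10, TLR3 and TLR8 sits above 0, and those of TLR2 and TLR5 sit below 0, with bars of TLR2 at 40 min and TLR5 at 20 min that reach 0. The points of TLR4 lie on both sides of 0.

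TLR1, TLR6, TLR7 and TLR10 also had a low GC content and low signal, and over all promoters the sensitivity was lower where GC content was higher. Across promoters, Pearson's r between the 2 kb sensitivity and GC content was -0.59 without HKST (n = 16148 promoters), -0.45 at 40 min (n = 21488) and -0.42 at 60 min (n = 21499), and Spearman's rho was -0.57, -0.43 and -0.41. These points share the same libraries and are given as a description. Promoters were also split into 10 deciles of GC content at each time. The lowest decile, which held TLR1, TLR3, TLR6, TLR7 and TLR8 at each time they were read, had a median sensitivity of 0.60 without HKST, 0.40 after 40 min and 0.40 after 60 min.

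Against the promoters of its own GC decile, TLR7 was higher by 0.66, 0.85 and 0.89 without HKST, after 40 min and after 60 min, above 98.3%, 99% and 97.9% of them. TLR1 was higher by 0.40, 0.68 and 0.94, above 90.4%, 96.8% and 98.7%. TLR6 was higher by 0.93 at 40 min and 1.03 at 60 min, above 99.4% and 99.5%. These differences were smaller than the sensitivities themselves, and TLR6 at 60 min was the 1 value that stayed over 1.

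TLR10, in the lowest GC decile without HKST and in the next one at 40 and 60 min, differed from its decile median by 0.10, 0.39 and 0.96. Deciles were cut on the promoters read at each time, fewer without HKST (16148) than at 40 min (21488) and 60 min (21499). TLR10 and TLR4 changed decile for this reason, with the same GC content. The median of the lowest decile also differed, with 0.60 without HKST and 0.40 at 40 and 60 min. So the differences from the decile are not a time course for any receptor, TLR7 and TLR1 included. TLR3 differed by 0.19, 0.07 and 0.24 and TLR8 by -0.03, 0.07 and 0.01, so that TLR8 lay near the middle of promoters of like base composition. TLR2 differed by -0.29, -0.14 and -0.41, TLR5 by -0.33, -0.30 and -0.42, and TLR4 by -0.37, -0.44 and -0.17. The part of GC content in these results was not tested further.

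**Figure D2:**
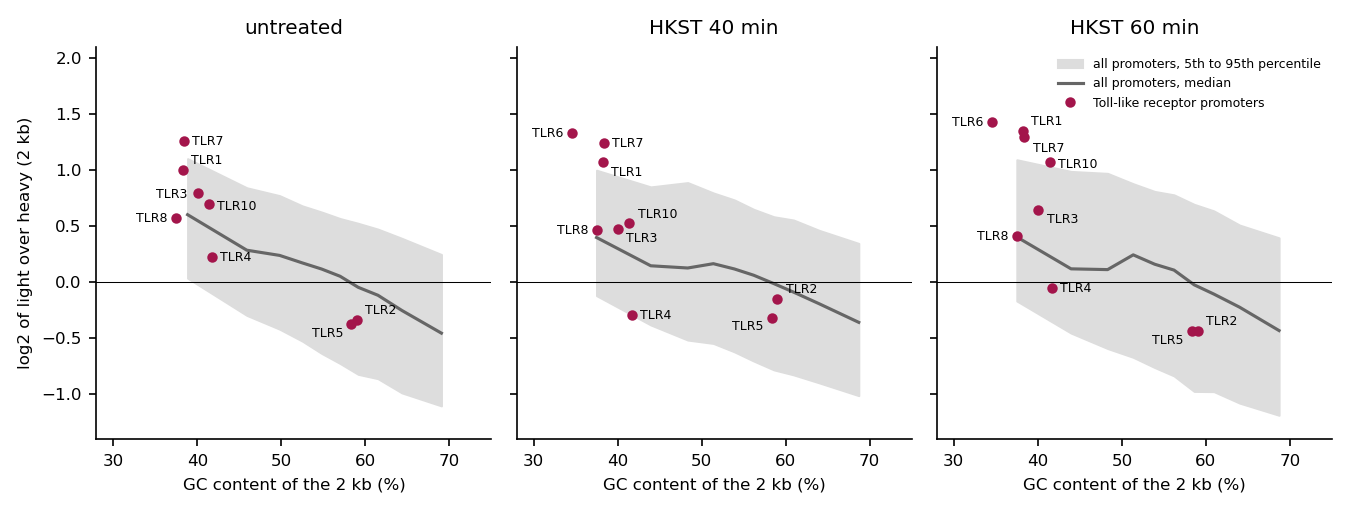
Sensitivity over 2 kb (log2 of light over heavy, y axis) against GC content of the 2 kb (x axis, %) in untreated cells and after 40 and 60 min of HKST. The grey band holds the 5th to 95th percentile of all promoters in each decile of GC content and the line their median, and 7 of the 9 Toll-like receptor promoters sit at the AT-rich end, where TLR7 lies above the 95th percentile of its decile in each panel, TLR6 and TLR1 in both HKST panels and TLR10 at 60 min.

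Total signal was low at TLR1, TLR6, TLR7, TLR8 and TLR10. Promoters were enriched by sequence capture, and the part of capture in total signal was not tested. Light plus heavy rpm over the 2 kb placed TLR6 at the 2.65th percentile of promoters at 40 min and the 3.09th at 60 min. TLR1 lay at the 10.5th percentile without HKST, the 9.81st after 40 min and the 14th after 60 min. TLR7, TLR8 and TLR10 lay between the 8.74th and the 23.9th percentile at these times, TLR4 between the 53.1st and the 56.6th, and TLR2, TLR3 and TLR5 between the 70.4th and the 89th. The part of low signal in the sensitivity of TLR1, TLR6, TLR7 and TLR10 was not tested.

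The profile around the TSS differed between the receptors. The nucleosome-free region was measured as log2 of the total signal from -100 to 50 bp over that of the 2 kb, with 0.119 rpm added to each, where the median promoter had -1.86 without HKST, -1.49 after 40 min and -1.54 after 60 min. TLR5 had the lowest values of the family, with -4.24 without HKST, -3.99 after 20 min, -5.02 after 40 min and -4.49 after 60 min, and 8 consecutive positions from -20 to 50 bp at 0 in all 8 tables. The added 0.119 rpm sets a floor that is less negative where total signal is lower. Total signal at 40 min was 3.72 rpm for TLR5, 1.08 rpm for TLR1 and 0.398 rpm for TLR6, so these values do not rank depth apart from total signal. TLR2 had -2.24, -1.99 and -1.99 without HKST, after 40 min and after 60 min, and TLR1 had -1.20, -1.70 and -2.05. TLR6 had -1.92 at 40 min and -0.72 at 60 min.

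TLR8 had no nucleosome-free region by this measure. Its values were 1.29 without HKST, 1.45 after 40 min and 1.27 after 60 min, above 97.5%, 97.8% and 97.3% of promoters. Its profile peaked at 30 bp without HKST, 0 bp after 40 min and -10 bp after 60 min relative to the TSS, with 4.76, 5.65 and 5.88 rpm of light plus heavy. By this measure TLR4 and TLR7 were also filled near the TSS, with 0.16, 0.19 and 0.32 for TLR4 and 0.25, 0.57 and -0.08 for TLR7. From 0 to 200 bp, TLR7 averaged 0.152, 0.126 and 0.243 rpm light, against 2.46, 1.67 and 2.25 rpm for TLR4. It had 5, 4 and 8 light fragments there and 53, 48 and 68 from -200 to 0 bp. So the signal of TLR7 near the TSS lay mostly upstream. TLR3 had -0.09, -0.51 and -0.49, and TLR10 -0.77, -1.05 and -1.06.

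The highest peaks of TLR1, TLR2, TLR3, TLR4 and TLR5 stayed within 20 bp of their places through the time course. The highest peak of TLR5 was at 810 bp at all 4 times, with 18.8, 12.6, 18.4 and 18.1 rpm without HKST and after 20, 40 and 60 min, and it had more heavy than light signal each time (log2 of light over heavy -1.10, -0.39, -0.59 and -0.69). That of TLR2 lay at 760, 760 and 780 bp with log2 ratios of -0.76, -0.59 and -0.93. That of TLR3 lay at -820, -830 and -830 bp with ratios of 0.80, 0.55 and 0.65. That of TLR1 lay at -850, -860 and -850 bp with ratios of 1.10, 0.69 and 1.81. That of TLR4 lay at 820 bp at each time with ratios of 0.07, -0.42 and 0.22. Downstream of the TSS, TLR7 had peaks at 410 and 740 bp without HKST and after 60 min and at 400 and 740 bp after 40 min, with ratios of 0.99 to 1.93. After 40 min it also had smaller peaks at 260 and 590 bp, with ratios of 2.64 and -0.02. Its highest peak was at 410 bp without HKST and at 740 bp after 40 and 60 min. The highest peak of TLR10 was at -560 bp without HKST, 800 bp after 40 min and -560 bp after 60 min.

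**Figure D3:**
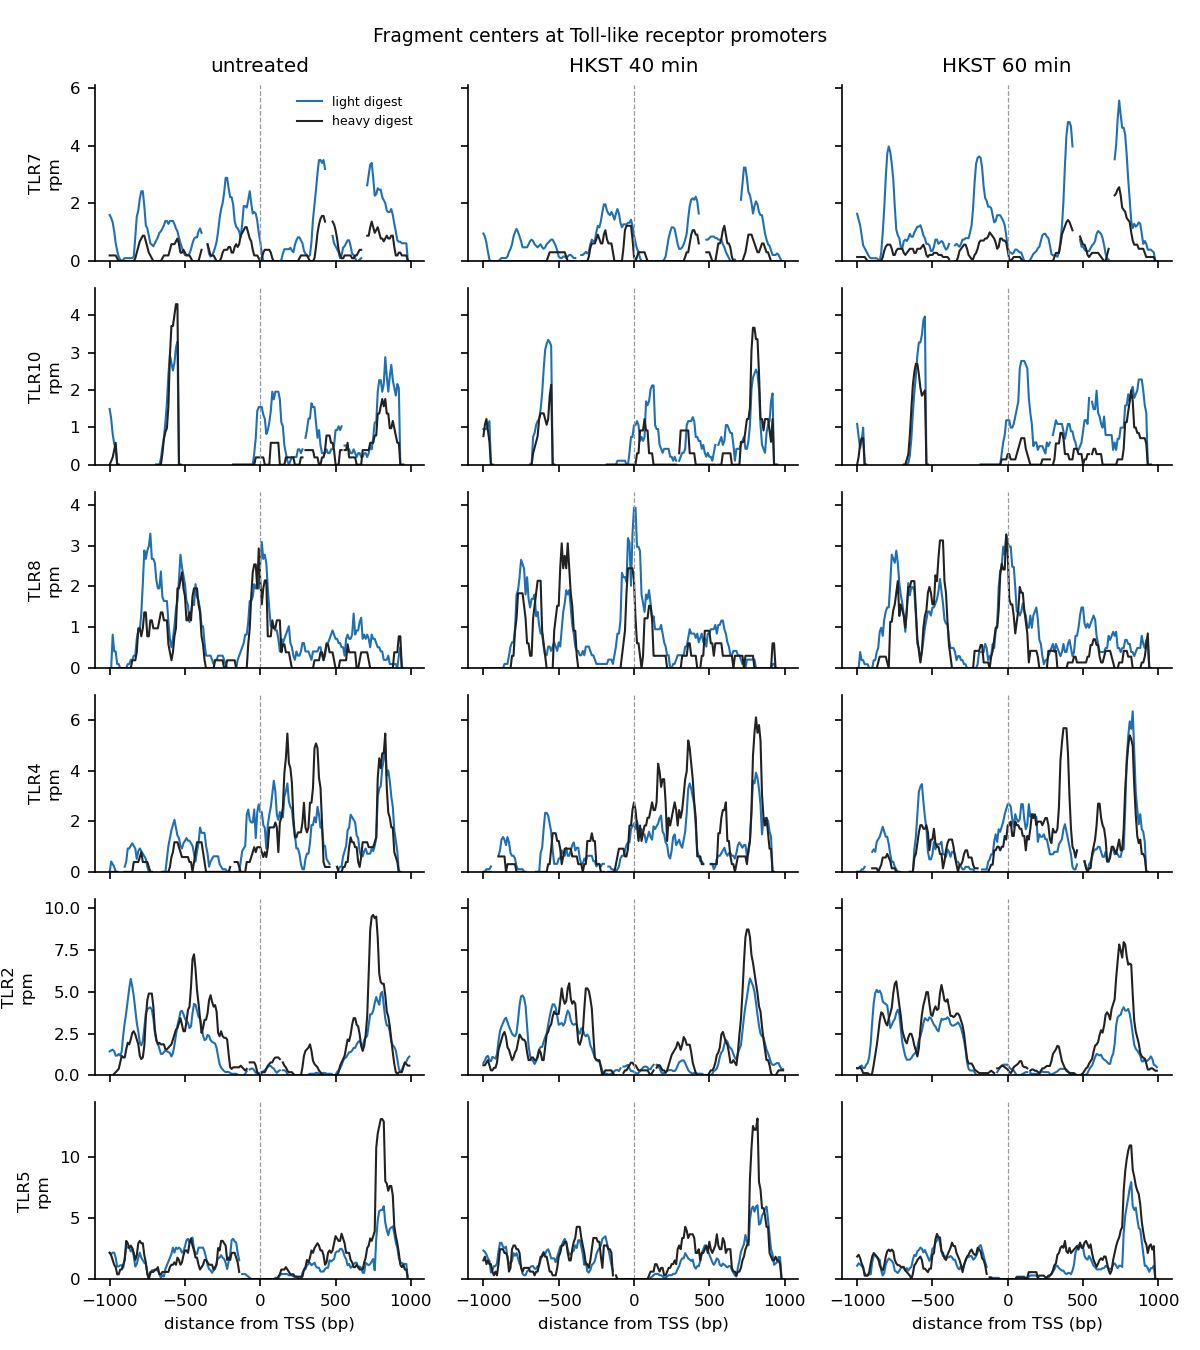
Light (blue) and heavy (black) fragment centers in rpm at each distance from the TSS (bp) for 6 receptor promoters in untreated cells and after 40 and 60 min of HKST. Light exceeds heavy over most of TLR7 and from 0 to 200 bp of TLR10, TLR8 is occupied at the TSS, and TLR2 and TLR5 have a peak near 760 to 810 bp in which heavy exceeds light. Gaps are positions with no value.

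The sensitivity was uneven along some promoters. At TLR10 it was highest between 0 and 200 bp, with 1.92 without HKST (95% interval 0.93 to 4.34), 1.36 after 40 min (0.16 to 3.6) and 2.15 after 60 min (1.44 to 4.16), on 4, 4 and 6 heavy fragments. TLR4 had values of 0.94, 0.96 and 0.78 from -1000 to -500 bp and of -0.78, -0.70 and -1.19 from 200 to 500 bp. The intervals of TLR4 from 200 to 500 bp lay below 0 at all 3 times (-1.42 to -0.27, -1.36 to -0.11 and -1.84 to -0.74) while from -1000 to -500 bp they lay above 0 without HKST (0.20 to 2.27) and after 60 min (0.24 to 1.65). TLR5 had 0.11, 0.25 and 0.05 from -1000 to -500 bp without HKST, after 40 min and after 60 min, and -0.80, -0.48 and -0.72 from 500 to 1000 bp. TLR8 had 1.14, 0.35 and 1.02 from 500 to 1000 bp and 0.21, -0.30 and -0.28 between -500 and -200 bp at these times.

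In the window of the -1 nucleosome, taken as -200 to 0 bp, no change of sensitivity after HKST passed the counting error at the receptors with enough fragments. At least 10 light plus heavy fragments per condition were present for 6 of 8 receptor promoters (TLR2, TLR3, TLR4, TLR5, TLR7 and TLR8), while TLR1 and TLR10 had too few, as did TLR6 at 40 min. At 40 min against untreated cells, 0 of the 6 intervals lay above 0 (2.12% of all promoters) and 0 below (1.94%). At 60 min against untreated cells, 0 lay above (2.72%) and 0 below (2.8%). Between 60 min and 40 min, 0 lay above (1.68%) and 0 below (2.49%). Medians of the change were 0.30 at 40 min and 0.01 at 60 min, against 0.08 and 0.03 over all promoters.

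TLR4 had 17 light and 7 heavy fragments in this window at 40 min, against 37 light and 7 heavy in untreated cells. The change of -1.53 (-3.69 to 0.27) was larger than 2-fold and lay at the 1.36th percentile of all promoters. It was the 1 receptor lower by over 1, where 5.93% of all promoters were. At 60 min it had 31 light and 12 heavy fragments and a change of -0.58 (-2.38 to 1.04). Light signal alone was 0.601 rpm at 40 min against 1.26 rpm in untreated cells, a log2 ratio of fragments of -1.08 (-2.0 to -0.21), where 3.08% of all promoters had an interval below 0, and heavy signal was 0.713 rpm against 0.434 rpm, a ratio of 0.65 (-1.10 to 2.39).

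TLR2 had 9 light and 3 heavy fragments at 40 min, against 5 and 8 in untreated cells, a change of 1.24 (-1.18 to 4.70). TLR3 had 19 and 2 at 40 min, against 21 and 9 in untreated cells, a change of 1.33 (-1.13 to 4.80). These were the 2 receptors higher by over 1, where 10.6% of all promoters were, each rested on under 10 heavy fragments, and in both this window lies in annotated exons of the same gene. At 60 min against untreated cells 0 receptors were higher by over 1 (8.48% of all promoters) and 0 lower (4.75%). At 60 min against 40 min TLR3 differed by -1.35 (-4.77 to 0.95), where 7.66% of all promoters were lower by over 1, and 0 receptors were higher (6.26%).

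TLR7, with the most light fragments in this window, had 53 light and 10 heavy fragments without HKST, 48 and 7 after 40 min, and 68 and 17 after 60 min. Its -1 sensitivity was 1.29 without HKST (0.49 to 2.62), 1.18 after 40 min (0.10 to 2.64) and 1.36 after 60 min (0.70 to 2.34), all above 0. The changes against untreated cells were -0.11 at 40 min (-1.90 to 1.52) and 0.07 at 60 min (-1.41 to 1.35). TLR8 had changes of 0.70 at 40 min (-0.76 to 2.58) and 0.03 at 60 min (-1.29 to 1.30), and TLR5 -0.67 (-2.53 to 0.85) and -0.45 (-2.13 to 0.94). At 20 min, TLR5 alone could be compared, with 35 light and 7 heavy fragments, against 33 and 10 in untreated cells, and a change of 0.24 (-1.55 to 1.98). At 60 min the intervals of 5 of the 6 receptors (not TLR5) reached past 1 in both directions, so a 2-fold change either way was not detectable at this depth.

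Over the whole 2 kb, where fragments were more numerous, TLR4 alone had a change beyond counting error. At 40 min its sensitivity was -0.29, against 0.23 in untreated cells, a difference of -0.52 (-1.0 to -0.17). This was 1 of 8 receptors with an interval below 0, where 5.29% of all promoters had one, and 0 had one above (5.89%). The light signal was 1.04 rpm at 40 min against 1.29 rpm in untreated cells, and the heavy signal 1.31 rpm against 1.08 rpm. At 60 min the change was -0.28 (-0.67 to 0.05). For the 8 receptors at 60 min against untreated cells 0 intervals lay above 0 (8.04% of all promoters) and 0 below (9.37%), and for the 9 receptors between 60 min and 40 min 0 lay above (4.29%) and 0 below (7.54%). For TLR5 at 20 min the change was 0.27 (-0.03 to 0.59).

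**Figure D4:**
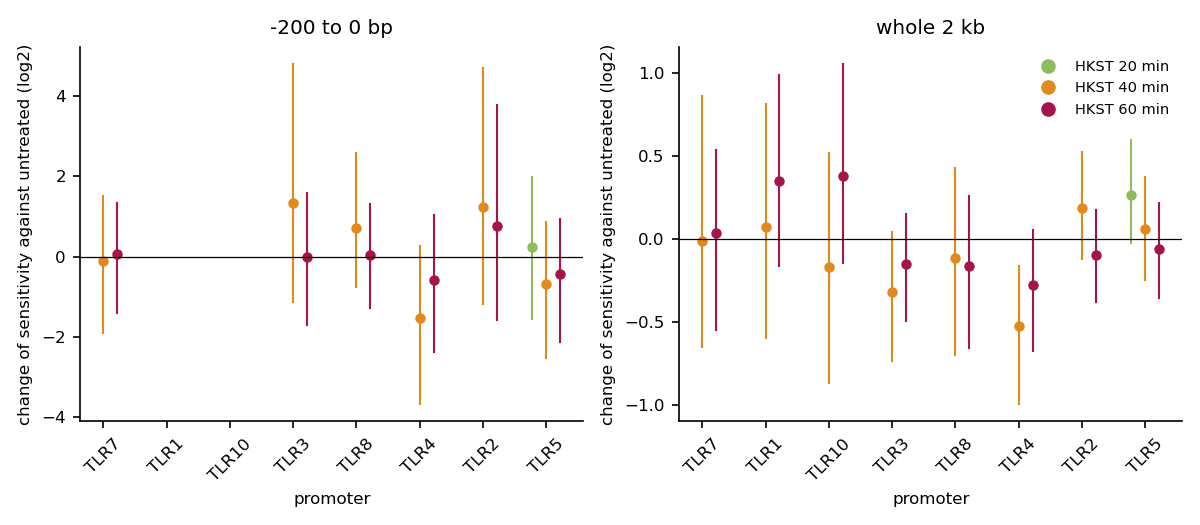
Change of sensitivity (log2, HKST time minus untreated) with 95% counting intervals for each receptor promoter, from -200 to 0 bp (left) and over the whole 2 kb (right). Receptors with under 10 fragments in a condition have no point on the left, and the y axes differ. The interval of TLR4 at 40 min over the 2 kb (-1.0 to -0.17) is the 1 that does not reach 0.

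In 3 smaller windows further changes passed the counting error. From -500 to -200 bp TLR4 was lower at 60 min than in untreated cells by -1.35 (-3.24 to -0.23), with 27 light and 25 heavy fragments at 60 min against 37 and 8 in untreated cells (3.65% of all promoters had an interval below 0). From 0 to 200 bp TLR4 was higher at 60 min than at 40 min by 0.90 (0.05 to 1.92, 1.67% of all promoters above 0). From 500 to 1000 bp TLR10 was higher at 60 min than at 40 min by 1.26 (0.44 to 2.53, 3.1% above 0) and TLR2 lower by -0.55 (-1.12 to -0.02, 5.04% below 0). Over all windows and comparisons, 5 of the changes read for receptors with enough fragments (3.09%) had an interval without 0. Of all promoters 7.70% did, averaged over the same windows and comparisons. The 2 shares are not matched for fragment number, and the smaller windows lie within the 2 kb. So they do not rank the receptors against promoters in general.

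Light signal alone was compared with untreated cells for all 9 receptors. Over the 2 kb at 40 min, light signal was lower for TLR7 (0.768 against 1.05 rpm, log2 ratio of fragments -0.45, -0.70 to -0.20), TLR4 (1.04 against 1.29 rpm, -0.31, -0.53 to -0.08) and TLR3 (1.67 against 1.95 rpm, -0.22, -0.39 to -0.04). These were 3 of 9 receptors with an interval below 0, where 9.31% of all promoters had one, and 0 had one above (8.7%). TLR6, TLR8, TLR10 and TLR1 were also lower (-0.17, -0.16, -0.13 and -0.09), and TLR5 (0.16) and TLR2 (0.01) higher, with intervals that reached 0. The split followed the AT-rich and CpG-rich kinds, and the part of GC content was not tested. At 60 min light signal was higher for TLR1 (0.991 against 0.828 rpm, 0.26, 0.02 to 0.50) and TLR3 (2.21 against 1.95 rpm, 0.18, 0.02 to 0.34), where 12.3% of all promoters had an interval above 0, and 0 receptors had one below (15.2%). TLR6 had light ratios to untreated cells of -0.17 (-0.56 to 0.22) at 40 min and 0.17 (-0.19 to 0.53) at 60 min. The heavy counterpart of TLR6 in untreated cells was not used here.

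Between 60 min and 40 min, light signal over the 2 kb passed the counting error at 5 of 9 receptors. It was higher at 60 min for TLR7 (1.21 against 0.768 rpm, 0.66, 0.42 to 0.90), TLR3 (2.21 against 1.67 rpm, 0.40, 0.23 to 0.57), TLR10 (1.06 against 0.817 rpm, 0.38, 0.09 to 0.67) and TLR1 (0.991 against 0.775 rpm, 0.35, 0.11 to 0.60), where 13.4% of all promoters had an interval above 0. It was lower for TLR5 (1.38 against 1.65 rpm, -0.26, -0.44 to -0.08), where 16% had one below. TLR6 (0.34), TLR8 (0.22) and TLR4 (0.21) were also higher and TLR2 (-0.11) lower, with intervals that reached 0. So the AT-rich receptors were all higher and the CpG-rich TLR2 and TLR5 lower, and the part of GC content was not tested. Heavy signal of TLR7 was also higher at 60 min than at 40 min (0.424 against 0.255 rpm, 0.75, 0.11 to 1.44), where 4.68% of all promoters had an interval above 0, and its light over heavy ratio did not pass the counting error. Heavy signal of TLR3 was higher at 60 min than in untreated cells (1.37 against 1.07 rpm, 0.35, 0.08 to 0.63), where 7.35% had an interval above 0. At 40 min against untreated cells 0 of 8 receptors had a heavy interval above 0 (3.95% of all promoters).

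The genes that carry the receptor signal were read from a list of 35 adaptors, kinases, accessory proteins and transcription factors, of which 34 had a promoter in the tables and 30 in the untreated heavy table. Over the 2 kb, 0 of 30 exceeded 1 in sensitivity without HKST, where 1.28% of all promoters did. At 40 min 0 of 34 did (1.25% of all promoters), and at 60 min 0 of 34 (2.12%). In the -1 window 21 had enough fragments. At 40 min against untreated cells 3 of the 21 were higher by over 1 (10.6% of all promoters) and 1 lower (5.93%), with a median change of 0.34 against 0.08 over all promoters. Of their intervals 0 lay above 0 (2.12%) and 1 below (1.94%), that of the lipopolysaccharide co-receptor CD14, with 63 light and 27 heavy fragments at 40 min against 83 and 24 in untreated cells and a change of -1.11 (-2.17 to -0.17). At 60 min 3 were higher by over 1 (8.48%) and 0 lower (4.75%), with a median of 0.17 against 0.03, and 1 interval lay above 0 (2.72%) and 0 below (2.8%). That was MAP3K7, the TAK1 kinase, with 90 light and 9 heavy fragments at 60 min against 76 and 18 in untreated cells and a change of 1.45 (0.32 to 3.07). TIRAP, an adaptor of TLR2 and TLR4, had a value of 1.15 (-0.63 to 4.13), and IRF3, an interferon regulatory factor, 1.08 (-1.46 to 4.24). The largest negative values were those of LY96, which encodes the MD-2 partner of TLR4 (-0.80, -3.82 to 1.17), CD14 (-0.59, -1.50 to 0.29) and the lipopolysaccharide binding protein LBP (-0.39, -1.38 to 0.50).

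Changes of the pathway list over the 2 kb passed the counting error at few promoters. At 40 min against untreated cells TRAF3, a signalling adaptor, was higher (0.55, 0.05 to 1.23) and TAB3, a partner of TAK1, lower (-0.53, -1.05 to -0.15), 1 of 30 each way against 5.89% of all promoters above 0 and 5.29% below. At 60 min against untreated cells MYD88, the common adaptor of most Toll-like receptors, was higher (0.34, 0.06 to 0.69), 1 of 30 against 8.04%. At 20 min TOLLIP, an inhibitor of the pathway, was higher (0.47, 0.01 to 1.11), 1 of 7 against 10.5%. Between 60 min and 40 min LY86, a partner of the receptor-like CD180, was higher over the 2 kb (0.43, 0.05 to 0.91), 1 of 34 against 4.29%, and TICAM1, the adaptor of TLR3, was higher in the -1 window (1.52, 0.07 to 3.45), 1 of 24 against 1.68%. These 6 genes, and CD14 at 40 min, were named after their values were seen.

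Among all promoters outside each region, the total profile most like that of each receptor, by Pearson's r over 324 to 477 positions in untreated light, 40 min and 60 min tables, was that of SP1 for TLR1 (r = 0.88), TRIM28 for TLR2 (0.87), CCDC62 for TLR5 (0.85), MIR548D2 for TLR4 (0.80), BRS3 for TLR8 (0.77), CRP for TLR10 (0.76), STIL for TLR6 (0.76), ZNF724P for TLR3 (0.76) and RYR1 for TLR7 (0.69). None of these is another Toll-like receptor. Neighbouring positions share fragments, so the values describe likeness of shape only.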

How the data were processed

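GM12878 cells, untreated or harvested after 20, 40 and 60 min of HKST, were digested with light or heavy MNase in 2 replicates. Adapters were clipped by the authors, pairs were aligned to hg19, and pairs without a unique place were dropped. Bowtie2 2.2.2, SAMtools and bedtools are named in the submitters' notes. The authors deposited fragment centers in 60 bp windows, scaled to depth (RPM), as 10 bp bins over 2 kb around each TSS, in 8 tables that pool both replicates. Columns of samples outside the series numbered 0. The low values were 100% whole multiples, within 0.05, of a step. Each fragment was taken as 2 steps in each of 6 windows, and depths and fragment numbers were recovered on this setting. The untreated heavy and both 20 min tables end in a partial line as received and were used up to it.

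Sensitivity was the log2 ratio of light to heavy RPM, with 0.1 of the mean (0.119 rpm) added to each. No p-value was computed, since each condition is 1 pooled value. Intervals are exact conditional 95% intervals of recovered fragments, cover counting error only, and treat PCR copies as separate fragments. A change needed 10 fragments in each condition. The genes named are all members, the 3 largest rises and 3 largest falls of the pathway list in the -1 window at 60 min, and the most alike promoter of each member. Members and lists were chosen with earlier results of these data known. GC content, motifs and sequences were read from GRCh37 with GENCODE annotation. The promoter sequences of the other members are not reported here. Python 3.11.15, numpy 2.4.6, pandas 2.3.3, scipy 1.17.1, pysam 0.24.0 and matplotlib 3.10.9 were used, and the computations were tested on simulated data. Alternatives were the pseudocount, centring on the median, other windows, the fragment minimum and means instead of medians. The comparison within GC deciles and TLR4 without the -1 window were added after the data were seen.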

Additional observations from a re-analysis of the deposited data

Results flagged for a closer look

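Of the changes of sensitivity read for the receptors, 5 (3.09%) had a counting interval without 0, against 7.70% of all promoters averaged over the same windows and comparisons. These shares are not matched for fragment number. TLR4 was lower at 40 min than in untreated cells over the 2 kb by -0.52, and lower at 60 min than in untreated cells from -500 to -200 bp by -1.35. TLR4 was higher at 60 min than at 40 min from 0 to 200 bp by 0.90. From 500 to 1000 bp, TLR2 was lower at 60 min than at 40 min by -0.55 and TLR10 higher by 1.26. Each rests on 1 pooled table per condition and digest, and differences between cultures were not tested.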

How the results depend on the processing

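No paired analysis was possible because each deposited table pools both replicates, and leaving out a replicate could not be done for the same reason. The TLR4 change over 2 kb at 40 min lay between -0.55 and -0.38 under the alternatives run for it, and without the -1 window (added after the data were seen) it was -0.45 (-0.92 to -0.06). These alternatives did not include a comparison of the change within GC deciles. Counts of receptors past 1 moved, and the cause was not tested. The shares of all promoters were not computed under these alternatives, so the counts below cannot be set against them. With a pseudocount of 0.5 of the mean, 0 receptors exceeded 1 over 2 kb at any of the 3 times, 0 were higher and 0 lower by over 1 in the -1 window at 40 min, and 0 lower between 60 and 40 min. With 0.05 of the mean, 1 was higher between 60 and 40 min. Centring on the median of all promoters left 1 over 1 without HKST and made 1 higher between 60 and 40 min. The difference from the GC decile (added after the data were seen) exceeded 1 for 0 receptors without HKST and 0 after 40 min. It did so for 1 after 60 min. For TLR8 without HKST this difference was -0.025, while its sensitivity was 0.58. The window -250 to -100 bp gave 1 higher at 40 min and 1 lower at 60 min against untreated cells, 0 lower between 60 and 40 min, and -1.27 for TLR3 at 40 min. The window -300 to 0 bp gave 1 beyond counting error at 40 min, 1 higher and 1 lower at 60 min against untreated cells, and 0 lower between 60 and 40 min. A minimum of 20 fragments left 1 higher at 40 min, and no minimum gave 1 higher between 60 and 40 min. Few fragments limited the -1 window, with 2 to 14 heavy ones for TLR3 and 5 to 9 light ones for TLR2.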
